A study of Oreochromis niloticus with 12 samples.

Results

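Testis and ovary of Nile tilapia (Oreochromis niloticus) raised from eggs treated with antisense RNA against steroidogenic factor 1 (SF1) were compared by RNA sequencing. The comparison takes the 3 testis and the 3 ovary libraries whose genotype label reads SF1 gene suppression, 6 of the 12 libraries in all. The other 6 libraries, 3 control testes and 3 control ovaries, gave the reference sex difference. Antisense fragments entered the eggs through the opening that sperm use, with a transfection reagent. The protocol names both a blank-plasmid and a water control, and the labels of the control libraries do not say which was used. Larvae spent 30 days in a small recirculating system before a larger one, within a culture cycle of 150 days. Control descriptions place the gonads at sexual maturity. The labels do not say whether a library is 1 fish or a pool, so p-values measure the spread between these libraries, which may be technical.

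The vertebrate gonad becomes testis or ovary through opposing gene programmes. In tilapia, dmrt1, amh and gsdf act on the male side, while foxl2 and the aromatase gene cyp19a1a, whose product makes oestrogen, act on the female side. SF1, encoded by nr5a1, is a nuclear receptor that switches on genes of steroid synthesis in gonadal somatic cells. Adult testis and ovary also differ in their germ cells, since testis holds meiotic cells and sperm and ovary holds growing oocytes loaded with maternal RNA. In whole-organ RNA, fewer cells of a type and less RNA per cell cannot be told apart.

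The labels name the target only as SF1, and nr5a1, the gene taken here to encode it, overlapped its control range in both gonads under the label. nr5a1 (ENSONIG00000020218) was at 23.7, 24.3 and 6.34 FPKM (fragments scaled to transcript length and library depth) in the 3 testes labelled suppressed and at 9.26, 11.8 and 17.9 FPKM in the control testes. Labelled testis replicates 1 and 2 thus lay above the control testes and replicate 3 below them. In ovary it was at 1.35, 2.95 and 1.73 FPKM under the label and at 1.37, 1.95 and 2.80 FPKM in controls. The log2 difference of labelled minus control was 0.58 (SE 0.44, edgeR adjusted p = 0.373) in testis and 0.08 (SE 0.45, adjusted p = 0.931) in ovary. The groups are therefore named by their label only, as labelled testis and labelled ovary. The sex difference of nr5a1 itself was 2.95 log2 units (SE 0.47, adjusted p = 7.55e-05) under the label and 2.45 in controls, higher in testis both times. The 2 values did not differ past the threshold (difference 0.50, SE 0.63, adjusted p = 0.642). Without labelled testis replicate 3 the labelled sex difference was 3.36 and the difference between labels 0.93 (edgeR adjusted p = 0.171).

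Library totals, in units of 1e6 counts, ran from 36.8 to 60.5 over all 12 libraries, from 47.3 to 56.6 in labelled testis and from 53.0 to 60.5 in labelled ovary. The first principal component separated the gonads and held 85.2% of the variance. The third labelled testis was unlike the other two. Its spread beyond counting error, as a coefficient of variation, was 36.6% and 33.9% against replicates 1 and 2, beside 14.9% between those. Pairs of labelled ovaries gave 11.2% to 15.1%. In replicate 3, 22 of 32 steroid synthesis genes and 24 of 26 connective tissue and smooth muscle genes were at the lowest level of the 3 labelled testes, whereas 63 of 88 sperm flagellum genes were at the highest. Such counts, here and in later paragraphs, were not made over all tested genes. They therefore do not show that a list differs from other genes in this respect.

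Most of the sex difference in expression was found in gonads under the label as well. A gene was called sex-biased when its edgeR quasi-likelihood test gave a Benjamini-Hochberg adjusted p under 0.05 and testis and ovary differed at least 2-fold. Of 15382 genes tested, 5049 (32.8%) were higher in labelled testis and 4505 (29.3%) in labelled ovary. In controls the counts were 5161 (33.6%) and 4492 (29.2%). A total of 8321 genes were called with the same sign under both labels, which is 86.2% of the 9653 control calls and 87.1% of the 9554 labelled calls. Without regard to a test, all 3 labelled testes lay above all 3 labelled ovaries for 6882 genes (44.7%) and under them for 5808 (37.8%). The median absolute log2 difference over all tested genes was 1.44 under the label and 1.45 in controls. Across genes, which are not independent replicates, Pearson's r of both log2 differences was 0.896, and the contrasts share no library.

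Whether a sex difference changed was read from the difference of the 2 contrasts in the same model, (labelled testis minus labelled ovary) minus (control testis minus control ovary), called at an adjusted p under 0.05. This called 2381 genes (15.5%), 1127 toward testis and 1254 toward ovary. The median SE of this value was 0.25 log2 units, against 0.18 for a single sex contrast. Genes called in both sex contrasts with the same sign and not in the difference test numbered 7211 (46.9%) and are termed kept, although a missed threshold does not show equality. Another 824 genes (5.36%) were weaker and 845 (5.49%) stronger under the label, and 321 (2.09%) had fitted differences of opposite sign, of which 80 were called sex-biased under both labels. A further 391 changed genes were sex-biased under neither label. Without labelled testis replicate 3, the difference test called 3058 genes, with 1132 weaker and 1016 stronger. In all 12 fits that left out 1 library each, 1432 of the 2381 calls were present.

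**Figure D1:**
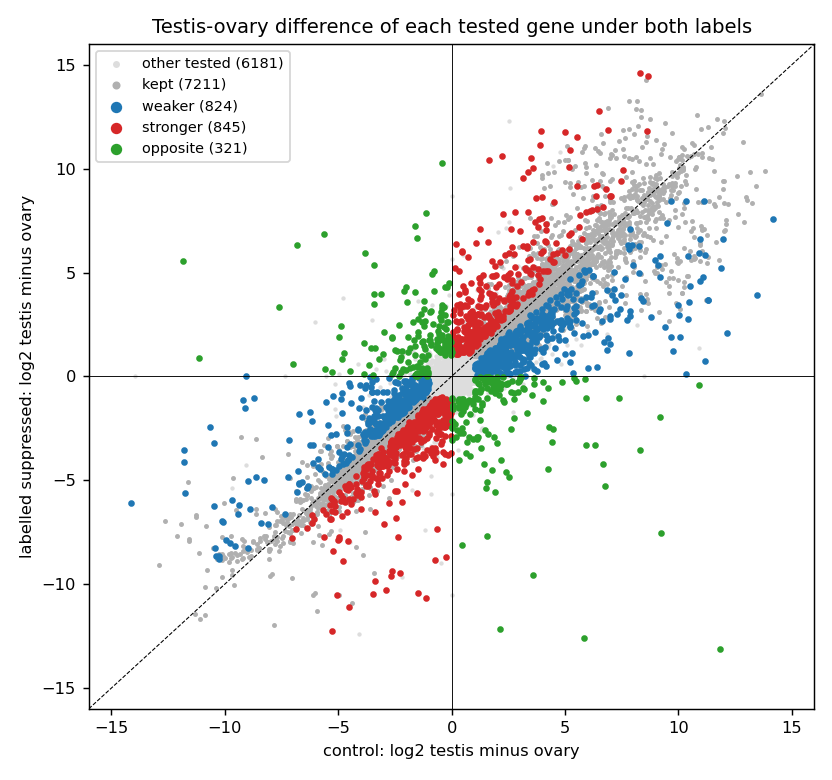
Each point is 1 of 15382 tested genes, with the control log2 testis minus ovary difference on the x axis and the labelled one on the y axis. Kept genes (7211) follow the diagonal, weaker genes (824) lie toward the horizontal axis, stronger genes (845) lie toward the vertical axis or beyond the diagonal, and 321 genes lie in the quadrants of opposite sign.

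Reduced and enlarged sex differences were about equally many. Among genes called in controls, 56.6% had a smaller difference under the label. Among genes called under the label, 55.9% had a smaller difference in controls. In genes of opposite sign, the larger of the 2 label shifts was in ovary for 72% of 321 genes, against 48.8% of all tested genes. The corresponding shares were 57.8% for weaker and 54.6% for stronger genes. Opposite-sign genes were also nearer the floor, with a median of 0.94 FPKM in the lower control gonad, against 4.975 over all tested genes. A group at 0 was found in 6.54% of them, against 2.8%. Labelled testis replicate 3 differed from its mates more than labelled ovaries did from each other, and the shares were not computed without it. Whether either bears on these shares was not tested. The 166 opposite-sign genes that were testis-higher in controls had a median label shift of 1.93 log2 units in ovary and -0.78 in testis, and the 155 ovary-higher ones had -2.07 in ovary and 0.44 in testis.

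Among male somatic genes, dmrt1, amh, gsdf and sox9a were testis-higher under both labels, with dmrt1 weaker and sox9a stronger. Of 29 testis somatic genes in the table, 26 passed the filter on low values. Under the label 14 were higher in testis and 7 in ovary, against 16 and 8 in controls. The labelled calls covered 80.8% of members, against 62.1% of all tested genes. The difference test called 15.4% of members, against 15.5% of all tested genes. The median log2 difference of the list was 1.23 under the label and 1.49 in controls, beside 0.07 and 0.08 over all tested genes. Labelled testis replicate 3 was the lowest labelled testis for 21 of the 26 members. In the fit without it the drop was not found: 16 were higher in testis and 8 in ovary, and the median was 1.53 against 1.48. That fit called 6 members changed, beside a rise from 2381 to 3058 over all tested genes. The list's 4 changed members in the main fit were dmrt1 and tjp1b (weaker) and sox9a and clu (stronger). All 4 kept the call in all 12 leave-one-out fits.

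dmrt1, a transcription factor that directs testis development, was at 283, 291 and 323 FPKM in labelled testis and at 3.31, 3.24 and 3.18 FPKM in labelled ovary. Control testes had 279, 261 and 264 FPKM and control ovaries 0.958, 0.817 and 1.34 FPKM. Testis exceeded ovary without overlap under both labels, and every labelled ovary exceeded every control ovary. The sex difference was 6.34 log2 units (SE 0.16, adjusted p = 5.27e-12) under the label and 7.79 in controls, a difference of -1.46 (SE 0.20, adjusted p = 0.00051). The label shift was 1.74 log2 units in ovary (SE 0.16, adjusted p = 1.55e-05) and 0.28 in testis (adjusted p = 0.122).

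sox9a, a transcription factor of Sertoli cells in mammals, was at 12.2, 9.53 and 9.49 FPKM in labelled testis against 2.65, 2.46 and 2.72 FPKM in control testis. It was at 0.131, 0.120 and 0.0414 FPKM in labelled ovary and at 0.141, 0.102 and 0.136 FPKM in control ovary. Labelled testes all lay above control testes, whereas the ovary ranges overlapped. Its sex difference was 6.51 log2 units (SE 0.33, adjusted p = 1.5e-09) against 4.13 in controls (difference 2.38, SE 0.42, adjusted p = 0.00237).

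amh, which encodes the anti-Mullerian hormone of Sertoli cells, was at 162, 142 and 35.4 FPKM in labelled testis and at 10.8, 10.6 and 12.3 FPKM in labelled ovary. Control testes had 165, 182 and 214 FPKM and control ovaries 6.61, 8.27 and 7.68 FPKM. Labelled testis replicate 3 was the lowest testis, still above every ovary. Its sex difference was 3.11 log2 units (SE 0.39, adjusted p = 8.63e-06) against 4.43 in controls, which did not differ past the threshold (difference -1.32, adjusted p = 0.107). The difference was called in the fits without labelled testis replicate 1 (-1.63) and without labelled testis replicate 3 (-0.87, adjusted p = 0.00222), and by DESeq2 (adjusted p = 0.0337).

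gsdf, a gonadal growth factor of the TGF-beta family found in fish, was at 1280, 1132 and 440 FPKM in labelled testis and 431, 463 and 445 FPKM in control testis. Ovaries held 24.8, 27.2 and 29.1 FPKM under the label and 22.5, 31.4 and 23.3 FPKM in controls. Labelled testis replicates 1 and 2 stood above all controls, and replicate 3 lay among them. The sex difference was 4.92 log2 units under the label (SE 0.31, adjusted p = 1.28e-08) and 3.92 in controls. The difference of 1.01 was not called (adjusted p = 0.0963) and was called without labelled testis replicate 3 (1.36, adjusted p = 0.000211) and by DESeq2 (adjusted p = 0.0285).

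clu, which encodes the secreted chaperone clusterin, is the ovary-higher gene among the 4. It was at 29.5, 23.8 and 30.7 FPKM in labelled testis and 249, 224 and 255 FPKM in control testis, with no overlap. Ovary levels were 245, 455 and 284 FPKM under the label and 378, 563 and 589 FPKM in controls, with overlapping ranges. The sex difference of -3.73 log2 units (SE 0.25, adjusted p = 1.75e-08) was larger than the control value of -1.27 (difference -2.46, SE 0.32, adjusted p = 0.000285). tjp1b, encoding a tight junction scaffold protein, was testis-higher by 2.58 log2 units under the label and 4.22 in controls (difference -1.63, SE 0.14, adjusted p = 1.12e-05). Its mean was 34.6 ± 2.22 FPKM in labelled testis and 96.3 ± 3.81 FPKM in control testis (SD, n = 3), beside 5.06 ± 0.642 and 4.50 ± 0.384 FPKM in ovary.

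**Figure D2:**
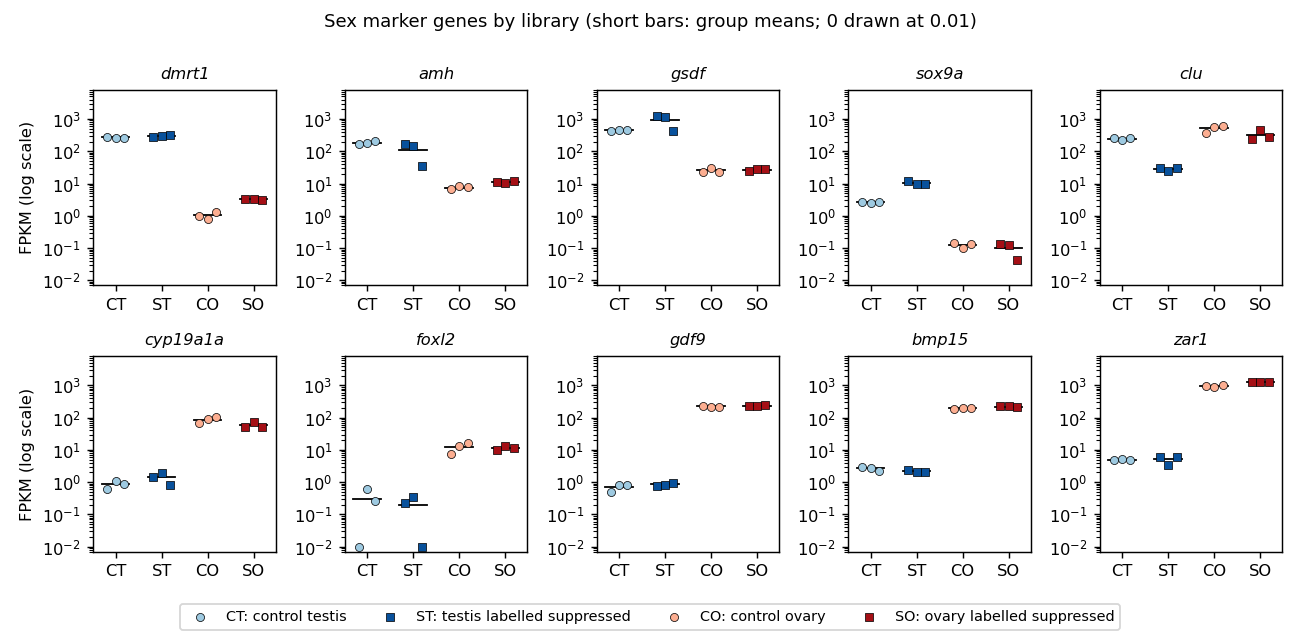
Marker levels in each of the 12 libraries as FPKM on a log axis, with 3 libraries per group and a short bar at the group mean; CT and CO are control testis and ovary, ST and SO the labelled ones. dmrt1 is higher in labelled ovary (3.18 to 3.31 FPKM) than in control ovary (0.817 to 1.34 FPKM), sox9a is higher and clu lower in labelled than in control testis, and gdf9, bmp15 and zar1 lie far higher in ovary under both labels.

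Of the female somatic genes, cyp19a1a, hsd17b1 and foxl2 were ovary-higher under both labels, with smaller differences for the first 2. Of 21 ovary somatic genes in the table, 15 passed the filter, with 5 higher in labelled ovary and 5 in labelled testis. In controls 5 were higher in ovary and 8 in testis. The labelled calls covered 66.7% of members, against 62.1% of all tested genes. The difference test called 26.7% of members, against 15.5% of all tested genes. The median log2 difference was -0.05 under the label and 1.32 in controls, and the labelled median turned to 0.03 with median-of-ratios scaling and 0.18 without labelled testis replicate 3. Without labelled testis replicate 3 the counts were 5 and 6 and the number changed rose from 4 to 7. Over all 15382 tested genes that omission raised the number changed from 2381 to 3058. fsta, encoding the activin inhibitor follistatin, did not pass the filter.

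cyp19a1a was at 50.7, 72.2 and 50.5 FPKM in labelled ovary and at 67.8, 90.2 and 104 FPKM in control ovary. Testes held 1.49, 1.96 and 0.794 FPKM under the label and 0.616, 1.08 and 0.900 FPKM in controls. Both gonads overlapped between labels, and ovary exceeded testis in every library. The sex difference was -5.55 log2 units (SE 0.29, adjusted p = 1.86e-09) under the label and -6.83 in controls (difference 1.28, SE 0.38, adjusted p = 0.0382). This difference call was lost in 8 of the 12 leave-one-out fits, those without control testis replicate 1 or 3, labelled testis replicate 1 or 2, control ovary replicate 2 or 3, or labelled ovary replicate 1 or 3, with values from 1.08 to 1.54 over all fits. It was also lost with total count scaling (adjusted p = 0.0561) and limma on log2(FPKM + 0.1) (adjusted p = 0.0747).

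hsd17b1, the enzyme that turns oestrone into oestradiol, was at 24.3, 45.2 and 29.5 FPKM in labelled ovary and 43.6, 69.7 and 59.6 FPKM in control ovary. Testis levels were 0.199, 0.398 and 0.303 FPKM under the label and 0.129, 0 and 0.0531 FPKM in controls. Labelled testes all lay above control testes, at levels far under those of ovary. Its difference shrank from -10.1 to -6.97 log2 units (SE 0.41, adjusted p = 6.4e-09; difference 3.14, adjusted p = 0.0134), a call present in all 12 leave-one-out fits.

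foxl2, a transcription factor of granulosa cells, was kept. It was at 9.71, 13.0 and 11.3 FPKM in labelled ovary and at 0.226, 0.359 and 0 FPKM in labelled testis. Its sex difference was -5.98 log2 units (SE 0.84, adjusted p = 2.49e-05) against -5.47 in controls, and the difference of -0.51 was not called (SE 1.09, adjusted p = 0.803).

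For inhbaa, an activin subunit gene, the control sex difference was not found under the label. Labelled testis held 7.46, 8.95 and 4.40 FPKM and labelled ovary 6.53, 6.12 and 5.97 FPKM, with overlapping ranges. Control testis held 7.69, 9.51 and 9.47 FPKM and control ovary 0.668, 0.688 and 1.50 FPKM, with no overlap. The fitted difference was -0.05 under the label (SE 0.30, adjusted p = 0.886) and 3.00 in controls (difference -3.05, SE 0.44, adjusted p = 0.000651), and the labelled value turned to 0.03 with median-of-ratios scaling.

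The retinoic acid synthesis gene aldh1a2 was likewise testis-higher in controls (2.00 log2 units) and at -0.22 under the label (adjusted p = 0.633). Its difference of -2.22 (adjusted p = 0.0255) was lost without control testis replicate 3, control ovary replicate 1 or 2, or labelled ovary replicate 2. pgrmc1, a membrane-associated progesterone receptor component, was testis-higher at 246 ± 86.6 FPKM in labelled testis and 18.6 ± 5.71 FPKM in labelled ovary (3.52 log2 units, SE 0.29, adjusted p = 1.64e-07). Its difference from controls (0.79, adjusted p = 0.184) was called without labelled testis replicate 3 (1.06, adjusted p = 0.0284).

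Several steroid synthesis genes had a larger excess in testis under the label. Of 37 genes in the deposited table, 32 were tested, and 16 were higher in labelled testis and 12 in labelled ovary, against 12 and 14 in controls. The labelled calls covered 87.5% of members, against 62.1% of all tested genes. The list's median was 0.61 under the label and -0.28 in controls. The difference test called 9 of 32 (28.1%, against 15.5% of all tested genes), with 5 stronger, 2 weaker and 2 of opposite sign. The stronger members include hsd3b7, which is ovary-higher. Of the 9 calls, 5 were present in all 12 leave-one-out fits. They were star, hsd3b7 and an AKR1D1 copy (stronger), hsd17b1 (weaker) and a cbr1 copy (opposite sign). Total count scaling and the replicate block called 7 members each. Without labelled testis replicate 3 the sex-biased counts were the same, the median was 0.92 and 12 members were called changed, 7 of them stronger. In that fit the changed genes among all tested rose from 2381 to 3058.

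star encodes the protein that carries cholesterol into mitochondria, the first step of steroid synthesis. It was at 889, 871 and 336 FPKM in labelled testis and at 213, 238 and 314 FPKM in control testis. Ovary held 2.80, 2.81 and 1.55 FPKM under the label and 3.07, 2.77 and 3.74 FPKM in controls. Every labelled testis lay above every control testis, and the ovary ranges overlapped. The sex difference was 7.98 log2 units (SE 0.41, adjusted p = 1.5e-09) against 6.11 in controls (difference 1.87, SE 0.44, adjusted p = 0.0127). Without labelled testis replicate 3 the difference was 2.22 (adjusted p = 0.000202).

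The enzymes that follow in the pathway were higher in the first 2 labelled testes than in the third. cyp11a2, which cleaves the cholesterol side chain, was at 426, 452 and 136 FPKM in labelled testis and at 7.37, 9.58 and 4.70 FPKM in labelled ovary (5.34 log2 units, SE 0.42, adjusted p = 9.4e-08; control 4.12). Its difference of 1.21 was not called (adjusted p = 0.125) and was called without labelled testis replicate 3 (1.61, adjusted p = 0.00314) and by DESeq2 (adjusted p = 0.0422). hsd3b1, the 3-beta-hydroxysteroid dehydrogenase, was at 413, 383 and 177 FPKM in labelled testis against 107, 119 and 140 FPKM in control testis, with no overlap. Its sex difference of 4.37 log2 units exceeded the control value of 2.87 (difference 1.50, SE 0.42, adjusted p = 0.0307). The call was lost without control testis replicate 1 or 2, labelled testis replicate 2, control ovary replicate 2 or 3, or labelled ovary replicate 1 or 3, where the difference ranged from 1.31 to 1.84 over all 12 fits.

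Genes of 11-oxygenated androgens, the main androgens of fish, followed. hsd11b2 was at 218, 242 and 66.6 FPKM in labelled testis and 44.2, 52.8 and 70 FPKM in control testis, where labelled replicate 3 lay inside the control range. Its sex difference was 6.80 log2 units (SE 0.43, adjusted p = 1.18e-08) against 5.16 (difference 1.64, adjusted p = 0.0432), and of the leave-one-out fits the call was present only in those without control testis replicate 3 and without labelled testis replicate 3 (2.05, adjusted p = 8.88e-05). It was also lost with total count scaling, the 5 FPKM filter and both limma fits (adjusted p from 0.0508 to 0.0948). cyp11c1, the 11-beta-hydroxylase, was at 29.6, 35.3 and 8.75 FPKM in labelled testis and 8.16, 7.05 and 6.44 FPKM in labelled ovary. In controls testis (13.5, 15.4 and 16.5 FPKM) and ovary (16.9, 12.7 and 14.7 FPKM) overlapped. It was sex-biased under the label alone by these calls (1.54, SE 0.34, adjusted p = 0.00103; control -0.17), with a difference of 1.71 (adjusted p = 0.0302). That difference was lost without control testis replicate 1 or 2, labelled testis replicate 2, control ovary replicate 1 or 3, or labelled ovary replicate 2 or 3, and in both limma fits (adjusted p = 0.0808 and 0.0900), and was 2.13 without labelled testis replicate 3 (adjusted p = 8.76e-06).

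cyp17a2, an enzyme of the progestin step of fish steroid synthesis, spanned a wide range among the labelled testes and is named here after its values were seen. It was at 239, 282 and 19.3 FPKM there and at 4.58, 6.30 and 3.24 FPKM in labelled ovary. Control testes held 259, 311 and 501 FPKM. The contrast came to 5.03 log2 units (SE 0.74, adjusted p = 3.87e-05) under the label and 5.62 in controls, a difference that was not called (-0.60, adjusted p = 0.707).

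On the ovary side, hsd3b7, a dehydrogenase of the bile acid pathway in mammals, was at 207, 201 and 209 FPKM in labelled ovary and 106, 103 and 104 FPKM in control ovary. Testes held 6.85, 4.11 and 3.24 FPKM and 5.15, 6.27 and 7.79 FPKM. The labelled ovaries were all near 2-fold above the control ovaries, giving a sex difference of -5.63 against -4.23 log2 units (difference -1.40, SE 0.28, adjusted p = 0.0055).

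The next 2 genes encode reductases and have further copies of the same symbol, so their counts are uncertain where reads are shared. The cbr1 copy ENSONIG00000001566 was at 11.8, 12.1 and 11.2 FPKM in labelled testis and 3.85, 3.52 and 6.23 FPKM in labelled ovary, but at 9.66, 9.23 and 8.77 FPKM in control testis and 31.2, 35.3 and 25.5 FPKM in control ovary. Its sign turned without overlap in either pair, from -1.93 to 1.17 log2 units (difference 3.10, SE 0.31, adjusted p = 4.32e-05). The AKR1D1 copy ENSONIG00000009750 was testis-higher by 2.70 log2 units under the label and 0.86 in controls (difference 1.84, adjusted p = 0.00363).

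**Figure D3:**
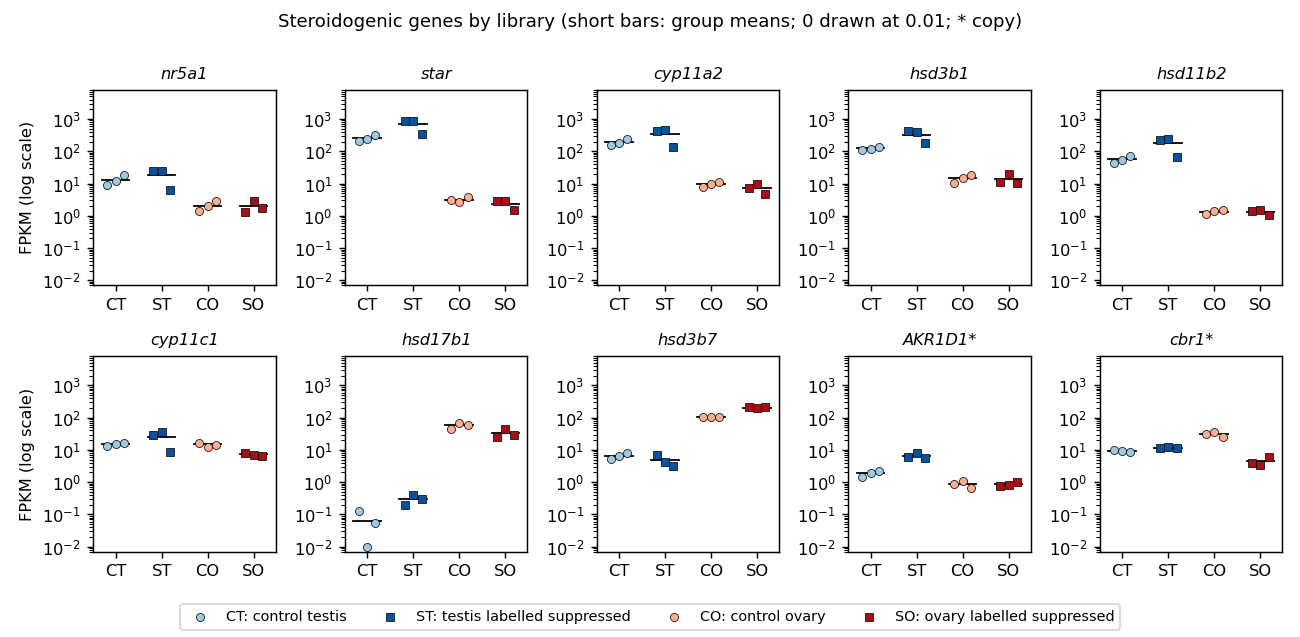
Steroid synthesis genes in each of the 12 libraries as FPKM on a log axis, with 3 libraries per group and a short bar at the group mean; CT and CO are control testis and ovary, ST and SO the labelled ones, and * marks a gene with further copies. In star, cyp11a2, hsd3b1 and hsd11b2, 2 labelled testes lie above the control testes and the third lies lower than these 2; the cbr1 copy is ovary-higher in controls and testis-higher under the label.

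Oocyte genes were ovary-higher to a like degree under both labels. Of 20 in the deposited table, 19 were tested, with 14 higher in ovary and 4 in testis under the label and the same counts in controls. The labelled calls covered 94.7% of members, against 62.1% of all tested genes. The median was -4.26 under the label and -4.15 in controls. The difference test called 1 gene (5.3%, against 15.5% of all tested genes). gdf9, an oocyte growth factor that acts on follicle cells, was at 234, 235 and 239 FPKM in labelled ovary and 236, 221 and 221 FPKM in control ovary. Its levels in testis were 0.785, 0.823 and 0.932 FPKM under the label. The sex differences were -8.30 (SE 0.15, adjusted p = 1.51e-12) and -8.50 log2 units, and the difference was 0.19 (SE 0.19, adjusted p = 0.544).

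bmp15, the second oocyte growth factor of this family, was at 225, 222 and 209 FPKM in labelled ovary (-6.84 log2 units, SE 0.14, adjusted p = 2.43e-12; control -6.38). Its difference of -0.46 (adjusted p = 0.0682) was called without control testis replicate 3 (-0.53), with total count scaling, with DESeq2 and with limma on log2(FPKM + 1) (adjusted p from 0.0399 to 0.0456). The maternal RNA-binding gene zar1 stood at 1248, 1248 and 1253 FPKM in labelled ovary against 934, 894 and 1037 FPKM in control ovary, and its sex difference was kept at -8.08 log2 units (control -7.81, difference adjusted p = 0.562). The egg coat gene zp2.1 (-8.75 log2 units, adjusted p = 1.23e-08) and btg4, which clears maternal RNA in mice (-8.07, adjusted p = 1.14e-10), were kept too. Without labelled testis replicate 2 the difference was called for both, at 1.68 and 0.85. figla, an oocyte transcription factor in mice, was not sex-biased at 2-fold under either label. It was at 41.0, 41.0 and 52.5 FPKM in labelled testis and 26.6, 23.3 and 24.7 FPKM in labelled ovary (0.67 log2 units). The changed gene was cth1, a CCCH zinc finger gene, with -7.77 against -7.02 log2 units (difference -0.74, adjusted p = 0.0172). That call was lost without control testis replicate 1, control testis replicate 3 or labelled testis replicate 1.

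Germ line genes were called on both sides, more of them testis-higher. Of 37 in the deposited table, 34 were tested, with 20 higher in labelled testis and 9 in labelled ovary (19 and 7 in controls) and medians of 1.32 and 1.23. Sex-biased under the label were 85.3% of members, against 62.1% of all tested genes. A total of 21 members were kept, and the 6 changed ones comprised 3 stronger, 2 weaker and 1 of opposite sign. These 6 of 34 are a share near the 15.5% changed among all tested genes. piwil1, a Piwi protein that silences transposons, was at 1326, 1132 and 1109 FPKM in labelled testis and 134, 132 and 125 FPKM in labelled ovary (3.00 log2 units, SE 0.10, adjusted p = 3.26e-11). It was kept, with 3.11 in controls (difference adjusted p = 0.609). nanos3, which protects germ cells in mice, was higher in ovary at 311, 316 and 324 FPKM under the label and at 315, 317 and 314 FPKM in controls, and its difference of -7.02 log2 units was kept.

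ddx4, the vasa helicase of germ cells, was higher in both gonads under the label. It was at 827, 836 and 982 FPKM in labelled testis and 370, 371 and 367 FPKM in labelled ovary, against 543, 495 and 460 FPKM and 147, 153 and 153 FPKM in controls. Testis and ovary differed by 1.07 log2 units (SE 0.11, adjusted p = 1.77e-06) and 1.53 in controls, and the difference of -0.46 was not called (adjusted p = 0.0734). With labelled testis replicate 3 left out the sex difference was 0.96, under the 2-fold minimum, and the difference of -0.56 was called (adjusted p = 0.00687). The difference was also called with total count scaling, the 5 FPKM filter and both limma fits (adjusted p from 0.0187 to 0.0446).

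dnd1, which shields germ cell RNA from microRNAs in zebrafish, was at 25.7, 22.4 and 22.8 FPKM in labelled testis and 90.8, 86.9 and 88.7 FPKM in labelled ovary. Control testes held 49.6, 43.7 and 38.1 FPKM and control ovaries 62.1, 66.9 and 67.0 FPKM. Labels did not overlap in either gonad, and the gonads moved apart, from -0.77 to -2.10 log2 units (difference -1.32, SE 0.15, adjusted p = 0.000133). taf4b, a transcription factor subunit of the germ line, also moved from -1.72 to -2.70 (difference -0.97, adjusted p = 0.000616). bcl6b, linked to spermatogonial stem cells in mice, was at 10.6, 9.94 and 3.87 FPKM in labelled testis and at 1.25, 1.09 and 1.16 FPKM in control testis, while ovaries held 0.882, 0.780 and 0.493 FPKM and 0.721, 1.57 and 1.81 FPKM. It was testis-higher under the label (3.29 log2 units, adjusted p = 8.34e-06) and at -0.43 in controls (adjusted p = 0.315; difference 3.71, SE 0.56, adjusted p = 0.000798). tdrd9, a Tudor protein of the piRNA pathway, was weaker (4.69 against 5.22 log2 units, difference -0.53, adjusted p = 0.0495), a call present in 1 of the 12 leave-one-out fits, that without control ovary replicate 1.

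More meiosis genes were testis-higher than ovary-higher under both labels. Of 29 in the deposited table, 28 were tested, with 17 higher in labelled testis and 2 in labelled ovary (18 and 2 in controls). Medians were 2.39 and 2.41. The labelled calls covered 67.9% of members, against 62.1% of all tested genes, and 9 members were not called. Of all tested genes 32.8% were higher in labelled testis and 29.3% in labelled ovary. The difference test called 8 of 28 (28.6%, against 15.5% of all tested genes), 5 of them stronger, and 4 calls were present in all leave-one-out fits. Labelled testis replicate 3 was the highest labelled testis for 20 of the 28, and without it the difference test again called 8. Calls over all tested genes rose from 2381 to 3058 in that fit.

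sycp3, a protein of the synaptonemal complex, was at 1138, 1128 and 2112 FPKM in labelled testis and 1079, 946 and 863 FPKM in control testis. Ovaries held 4.10, 3.16 and 2.17 FPKM under the label and 7.02, 5.96 and 6.89 FPKM in controls. Labelled testes lay above and labelled ovaries below the controls without overlap. Testis minus ovary was 8.69 log2 units (SE 0.37, adjusted p = 3.06e-10) against 6.98 (difference 1.71, SE 0.40, adjusted p = 0.0127), and without labelled testis replicate 3 the difference was 1.31 (adjusted p = 0.00271).

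dmc1, the meiotic recombinase, was likewise lower in labelled ovary, at 5.33, 6.43 and 4.89 FPKM in labelled ovary against 12.4, 11.7 and 12.3 FPKM in control ovary, and at 323, 329 and 476 FPKM in labelled testis against 339, 312 and 276 FPKM in control testis, with overlap. Testis and ovary differed by 5.90 log2 units (SE 0.21, adjusted p = 7.24e-11) against 4.47 (difference 1.44, adjusted p = 0.00222). STAG3, a meiotic cohesin subunit, changed by 0.66 (3.43 against 2.78 log2 units, adjusted p = 0.0112). hormad1, a protein of meiotic chromosome axes, was kept at 209 ± 58.4 FPKM in labelled testis and 0.498 ± 0.159 FPKM in labelled ovary (8.53 log2 units, SE 0.33, adjusted p = 1.34e-10).

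On the ovary side of this list was cyp26a1, which degrades retinoic acid, the signal for meiotic entry in mice. It was at 55.9, 53.0 and 56.1 FPKM in labelled ovary and 45.5, 49.0 and 43.1 FPKM in control ovary. Testes held 1.34, 1.58 and 0.729 FPKM under the label and 2.86, 3.03 and 2.92 FPKM in controls. The groups were separate at each step, and the sex difference grew from -4.16 to -5.69 log2 units (difference -1.53, SE 0.23, adjusted p = 0.000864).

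Sperm flagellum genes were nearly all testis-higher. Of 91 in the deposited table, 88 were tested, and 83 (94.3%, against 32.8% of all tested genes) were called higher in labelled testis, beside 85 in controls. The 5 members not called under the label were cfap206 (-0.22 log2 units), rsph10b (0.05), DNAH11 (0.38), cfap57 (0.61) and cfap36 (0.65), of which cfap206, rsph10b and cfap36 are named after their values were seen. The median was 5.26 under the label and 5.63 in controls, and 12 of 88 (13.6%, against 15.5% of all tested genes) were called changed, 7 stronger and 5 weaker. Leaving out labelled testis replicate 3, the highest labelled testis for 63 of the 88, gave 82 testis-higher and 15 changed genes, 7 stronger and 8 weaker. The changed genes among all tested rose from 2381 to 3058 with it. Leaving out labelled testis replicate 1 added a difference call for cfap206.

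odf3b, an outer dense fibre gene, was at 272, 297 and 520 FPKM in labelled testis and at 0.831, 0.666 and 0.425 FPKM in labelled ovary (8.96 log2 units, SE 0.38, adjusted p = 2.82e-10), beside 8.87 in controls. tekt1, a filament protein of the axoneme, was kept at 7.68 log2 units (adjusted p = 7.36e-10; control 7.77). RSPH1, a radial spoke head protein, was at 71.5, 110 and 115 FPKM in labelled testis and at 0, 0.0872 and 0 FPKM in labelled ovary. These genes were near 0 in labelled ovary, and none of the 3 was called in the difference test.

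ttc25, which docks outer dynein arms in mammals, and CFAP69, a flagellar protein, were both stronger with a lower level in ovary. ttc25 was at 1.06, 0.962 and 0.944 FPKM in labelled ovary and 7.43, 6.42 and 5.75 FPKM in control ovary, with 25.9, 34.9 and 38.7 FPKM in labelled testis. Testis minus ovary was 4.88 log2 units (SE 0.19, adjusted p = 1.13e-10) against 1.97 (difference 2.91, SE 0.23, adjusted p = 7.83e-06). CFAP69 moved from 2.11 to 4.47 log2 units (difference 2.36, adjusted p = 5.81e-05). dnah1, an inner arm dynein heavy chain, was stronger with a higher level in testis, at 22.1, 23.5 and 24.9 FPKM against 8.07, 7.99 and 8.82 FPKM in control testis (difference 1.95, SE 0.37, adjusted p = 0.00365). tctex1d1, a dynein light chain gene, changed by 1.83 (adjusted p = 0.00669).

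Among the weaker members, cfap57 had means of 33.3 ± 3.34 FPKM in labelled testis and 19.1 ± 1.41 FPKM in labelled ovary (SD, n = 3; 0.61 log2 units, control 1.69, difference -1.08, adjusted p = 0.000356). DNAH11, an outer arm dynein heavy chain, was at 0.38 against 1.89 log2 units (difference -1.51, adjusted p = 0.00176).

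Genes of hormones, growth factors and their receptors included a loss of ovary expression of crhb. Of 46 in the deposited table, 33 were tested, with 13 higher in labelled testis and 11 in labelled ovary (17 and 13 in controls). Medians were 0.39 and 1.05. Sex-biased under the label were 72.7% of members, against 62.1% of all tested genes. The difference test called 5 members (15.2%, against 15.5% of all tested genes). It called 10 without labelled testis replicate 3, which was the lowest labelled testis for 27 of the 33. Over all tested genes the same omission raised its calls from 2381 to 3058.

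crhb, encoding corticotropin-releasing hormone, the peptide that starts the stress axis, was at 52.3, 58.7 and 52.2 FPKM in control ovary and at 0.15, 0.234 and 0.236 FPKM in labelled ovary. Testes held 0.331, 0.534 and 0.483 FPKM in controls and 0, 0.739 and 0.458 FPKM under the label. Control ovary thus stood alone. The contrast came to -7.01 log2 units in controls and 0.58 (SE 0.72, adjusted p = 0.464) under the label (difference 7.59, SE 0.94, adjusted p = 0.000213). The change in ovary was -7.74 log2 units (SE 0.65, adjusted p = 6.76e-06).

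A copy of its receptor gene, crhr1 (ENSONIG00000009202), was at 0 in all 3 control ovaries and at 0.819, 0.682 and 0.878 FPKM in labelled ovaries. It was at 0.841, 1.60 and 0.540 FPKM in labelled testis and 2.64, 2.49 and 2.69 FPKM in control testis. Control testis was at least 163-fold above control ovary, computed against 3 counts over the group, and the labelled gonads overlapped (0.10 log2 units, SE 0.43, adjusted p = 0.832). The difference test called it (adjusted p = 0.000114).

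ACVR1, a receptor for BMP ligands, was ovary-higher by -1.08 log2 units under the label (SE 0.08, adjusted p = 6.61e-08) and -1.77 in controls (difference 0.69, SE 0.11, adjusted p = 0.00162). With median-of-ratios and total count scaling its labelled value was -0.99 and -0.88, under the 2-fold minimum. A copy of the membrane progestin receptor gene paqr8 (ENSONIG00000020922) was at 105, 98.6 and 96.1 FPKM in labelled ovary and 1.87, 2.05 and 1.41 FPKM in labelled testis (-6.00 against -5.20 log2 units, difference -0.80, adjusted p = 0.012).

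Cell cycle genes leaned toward ovary. Of 61 in the deposited table, 60 were tested, with 25 higher in labelled ovary and 12 in labelled testis (27 and 10 in controls) and medians of -0.30 and -0.63. The share sex-biased under the label, 61.7%, was near the 62.1% of all tested genes. Of all tested genes 29.3% were higher in labelled ovary and 32.8% in labelled testis. The difference test called 11 (18.3%, against 15.5% of all tested genes). pttg1, which encodes securin, was at 736, 620 and 749 FPKM in labelled ovary and 376, 348 and 325 FPKM in control ovary, with 85.9, 85.2 and 128 FPKM in labelled testis and 154, 127 and 109 FPKM in control testis. Ovary levels were separate between labels and testis levels overlapped. Its difference grew from -1.63 to -2.99 log2 units (difference -1.37, SE 0.28, adjusted p = 0.00536).

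ccna2, which encodes cyclin A, was ovary-higher at 1115, 1152 and 1105 FPKM under the label and was called weaker (-4.15 against -4.65 log2 units, difference 0.50, adjusted p = 0.0409). That call was lost without any 1 of control testis replicates 1 to 3, control ovary replicates 1 and 3 or labelled ovary replicates 1 to 3. cdk4, a kinase of the G1 phase, was at 4.95, 5.36 and 4.36 FPKM in labelled ovary and 1.09, 1.62 and 1.44 FPKM in control ovary, with no overlap. The contrast came to 0.38 (adjusted p = 0.0821) against 2.43 log2 units (difference -2.05, SE 0.28, adjusted p = 0.000386). E2F1, a transcription factor of S phase entry, was at 0.06 under the label (adjusted p = 0.721) and -1.09 in controls (difference 1.15, adjusted p = 0.00391). The cyclin D gene ccnd2a was ovary-higher by -1.51 against -2.18 log2 units (difference 0.67, adjusted p = 0.0114).

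Some genes often used as references differed between the gonads. Of 21 tested, 7 were higher in labelled testis and 4 in labelled ovary, the same counts as in controls. Called changed were 3 (14.3%, near the 15.5% of all tested genes). The share called under the label, 52.4%, was under the 62.1% of all tested genes. ACTB was at 17.1, 17.4 and 19.1 FPKM in labelled testis and 614, 595 and 598 FPKM in labelled ovary. Control testes held 56.9, 51.7 and 39.9 FPKM, all above the labelled testes, and control ovaries 585, 589 and 579 FPKM. Testis and ovary differed by -5.26 log2 units (SE 0.16, adjusted p = 1.94e-11) against -3.76 (difference -1.51, SE 0.19, adjusted p = 0.00023). A gapdh copy (ENSONIG00000012916) moved from -1.87 to -3.23 log2 units (difference -1.36, adjusted p = 9.92e-05). rpl8, a ribosomal protein gene, was kept at 1.32 log2 units (control 1.13, difference adjusted p = 0.505).

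Markers of other cell types were looked at beside these results, and their part in the results was not tested. Of 7 red blood cell genes 4 were higher in labelled testis and the other three were not called (6 were testis-higher in controls). Without labelled testis replicate 3, lowest for 5 of the 7, the count of testis-higher genes was 6. Their median difference was 1.43 log2 units under the label and 2.81 in controls, and still 1.635 against 2.80 without that library. The difference test on all libraries called 0% of these genes, against 15.5% of all tested genes. Their summed level was 32.0 to 62.2 FPKM in labelled testis and 18.7 to 23.8 FPKM in labelled ovary. Called under the label were 57.1% of these genes, against 62.1% of all tested genes. Leukocyte genes (17 tested) gave 1 testis-higher and 4 ovary-higher calls under the label (1 and 6 in controls), but 3 and 3 without labelled testis replicate 3, which was lowest for 14 of the 17. They had summed levels of 233 to 398 FPKM in labelled testis and 187 to 257 FPKM in labelled ovary. Control sums of the leukocyte genes were 236 to 286 FPKM in testis and 197 to 315 FPKM in ovary, overlapping the labelled ones. Called under the label were 29.4% of leukocyte genes, against 62.1% of all tested genes. Of 7 red blood cell genes 1 had no count in any labelled ovary, whereas each of 19 leukocyte genes had counts in both labelled gonads. The difference test called 1 leukocyte gene (5.9%, against 15.5% of all tested genes), the integrin gene itgb2. It was at 31.0, 34.8 and 36.8 FPKM in control ovary and at 4.65, 6.44 and 5.14 FPKM in labelled ovary. Testis and ovary differed by 0.34 (adjusted p = 0.267) under the label and -2.16 in controls (difference 2.5, SE 0.39, adjusted p = 0.00115).

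Connective tissue and smooth muscle genes (26 tested) gave 3 testis-higher and 4 ovary-higher calls under the label, against 8 and 4 in controls. The labelled calls covered 26.9% of members, against 62.1% of all tested genes. The difference test called 15.4% of members, against 15.5% of all tested genes. With labelled testis replicate 3 left out the labelled counts were 9 and 5, and the number called changed rose from 4 to 8. Over all tested genes that number rose from 2381 to 3058. Summed levels were 588 to 3015 FPKM in labelled testis, lowest in replicate 3 for 24 of 26 genes, and 1253 to 1373 FPKM in labelled ovary. Control sums were 793 to 1292 FPKM in testis and 742 to 829 FPKM in ovary, so the labelled ovaries and 2 of the labelled testes lay above their controls. As in the steroid synthesis list, replicate 3 was the low labelled testis, and what these genes have to do with the other results was not tested. postna, a matrix protein gene, was at 19.3, 20.7 and 19.7 FPKM in labelled ovary and 1.21, 1.28 and 0.970 FPKM in labelled testis, and was stronger (-4.30 against -3.03 log2 units, difference -1.27, adjusted p = 5.14e-05). The fibronectin gene fn1b was at 11, 14 and 6.26 FPKM in labelled ovary and 0.819, 1.95 and 2.71 FPKM in control ovary, and its sex difference of 0.95, under the 2-fold minimum, compared with 3.41 in controls (difference -2.46, adjusted p = 0.00881). It passed the minimum under 6 other settings (1.03 to 1.17) and without labelled testis replicate 3 or labelled ovary replicate 2. The calcification inhibitor mgp (-1.89 against -3.23) and the smooth muscle myosin gene myh11b (-1.51 against -3.32) were also weaker, with differences of 1.34 (adjusted p = 0.0153) and 1.81 (adjusted p = 0.00733).

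Of 24 liver genes in the table only 9 were tested, and 4 of them changed (44.4%, against 15.5% of all tested genes). apoeb, encoding apolipoprotein E, was at 264, 322 and 195 FPKM in labelled ovary and at 1395, 3276 and 3141 FPKM in control ovary, and made up most of the list's summed level (221 to 346 FPKM and 1557 to 3648 FPKM). Of the 24 liver genes, 5 had no count in any labelled ovary and 8 none in any control ovary. Labelled ovaries were all below control ovaries. The label shift in ovary was -3.21 log2 units (SE 0.29, adjusted p = 1.13e-05), and the sex difference was -5.11 against -6.71 (difference 1.60, adjusted p = 0.0152). apoa1a, the apolipoprotein of high-density lipoprotein, fell likewise from 258 ± 105 FPKM in control ovary to 10.8 ± 1.97 FPKM in labelled ovary (SD, n = 3; difference 3.30, SE 0.48, adjusted p = 0.000668). The transferrin gene tfa was testis-higher under the label (3.14 log2 units) and at -0.93 in controls (difference 4.07, adjusted p = 2.93e-05). A copy of complement C3 (ENSONIG00000016437) went from 1.79 to -4.53 log2 units (difference -6.32, SE 0.74, adjusted p = 0.000139), at 4.66, 6.00 and 5.15 FPKM in labelled ovary and 0.0576, 0.103 and 0.0129 FPKM in control ovary.

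Skeletal muscle genes (13 tested) gave 8 testis-higher and 4 ovary-higher calls under both labels. The labelled calls covered 92.3% of members, against 62.1% of all tested genes. Of the 13, 11 were kept and 1 was called changed (7.7%, against 15.5% of all tested genes). The changed one was tnnc2, a troponin gene. It was at 12.1, 14.0 and 13.9 FPKM in labelled ovary against 1.59, 1.70 and 2.26 FPKM in control ovary (difference -3.84, SE 0.87, adjusted p = 0.0109). Among 5 tested pancreas and intestine genes, the carboxypeptidase gene cpa1 was weaker (4.01 against 5.48 log2 units, difference -1.48, adjusted p = 0.00991) and cpa4 was at 3.08 against -0.97 (difference 4.05, adjusted p = 0.00051).

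**Figure D4:**
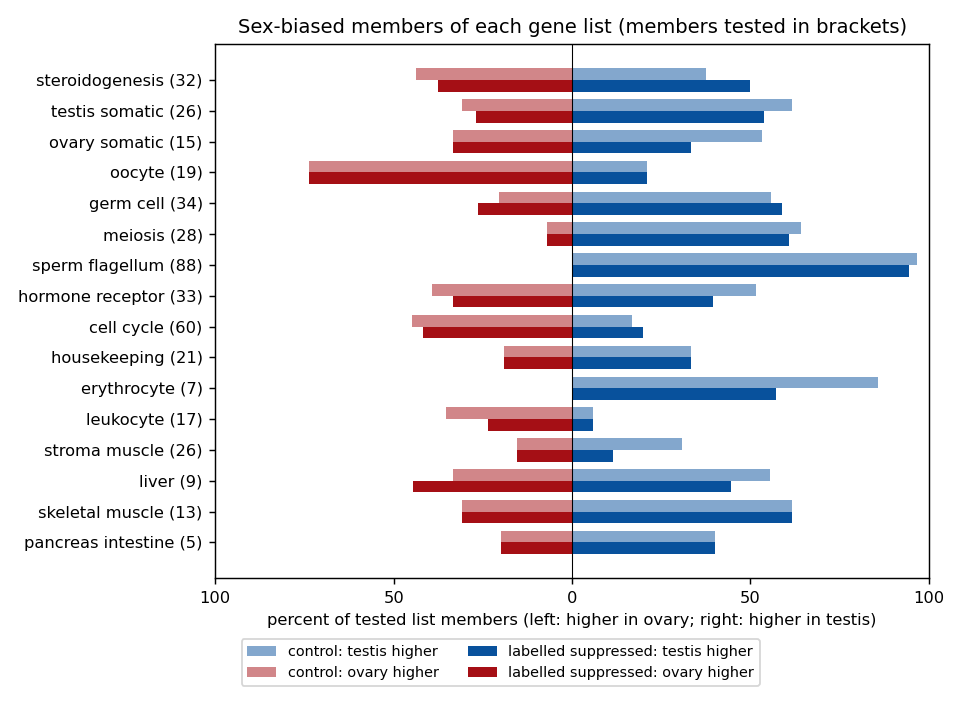
Share of the tested members of each gene list called sex-biased, with ovary-higher members to the left and testis-higher members to the right of 0; pale bars are controls, dark bars the labelled gonads, and the number tested is in brackets. Sperm flagellum (83 of 88 testis-higher) and oocyte genes (14 of 19 ovary-higher) look alike under both labels, while steroid synthesis genes gain testis-higher members (12 to 16) and connective tissue genes go from 8 to 3, which becomes 9 without labelled testis replicate 3.

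The largest testis-higher differences under the label belonged to genes near 0 in ovary. The 10 named by a fixed rule (symbol held by 1 gene, mean of at least 20 FPKM in the higher gonad) were RSPH1, abhd8b, dnajb13, glulc, rnf32, slc6a19a.2, tmprss12, ttll9, si:dkey-48j7.3 and si:ch211-226m16.3. dnajb13, a radial spoke component of sperm tails, was at 54.3, 72.5 and 90.0 FPKM in labelled testis and 0.0935, 0 and 0 FPKM in labelled ovary (10.9 log2 units, SE 0.63, adjusted p = 4.73e-09), and control testes held 76.2, 69.3 and 74.9 FPKM. tmprss12, a serine protease needed for male fertility in mice, was at 74.6, 82.2 and 130 FPKM in labelled testis (9.99 log2 units, adjusted p = 3.99e-10). ttll9, a tubulin ligase family gene, reached 10.5 log2 units, as did rnf32, glulc (a glutamine synthetase gene) had 10.5 and abhd8b 11.2. None of these 6 was called in the difference test, although ttll9 was called without control ovary replicate 2.

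For si:dkey-48j7.3, all 6 ovaries were at 0, and labelled testis was at least 1511-fold above labelled ovary. For si:ch211-226m16.3 labelled ovary was at 0 and labelled testis at least 2783-fold higher. Its difference call (adjusted p = 0.0469) was lost in 9 leave-one-out fits, and was present in those without labelled testis replicate 1 or 3 and without control ovary replicate 1. The fitted value of a gene at 0 depends on the prior count. slc6a19a.2, an amino acid transporter gene, was at 26.9, 31.6 and 8.84 FPKM in labelled testis and 2.85, 3.85 and 6.93 FPKM in control testis, with no overlap. It was stronger (11.5 against 5.52 log2 units, difference 6.01, SE 1.21, adjusted p = 0.00544).

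The 10 largest ovary-higher genes were cldnd, gnav1, s100a1, snx10a, tmem144b, zp2.1, zgc:110788, si:ch211-283g2.1, si:ch211-14a17.6 and si:ch73-15b2.5. cldnd, a claudin of tight junctions, was at 1434, 1362 and 1519 FPKM in labelled ovary and 4.60, 1.34 and 4.78 FPKM in labelled testis (-8.82 log2 units, SE 0.46, adjusted p = 1.86e-09). snx10a, a sorting nexin gene, reached -9.58 log2 units (adjusted p = 9.94e-09), zgc:110788 -9.65, si:ch73-15b2.5 -8.95, tmem144b -8.75 and the calcium-binding protein gene s100a1 -8.67. gnav1, a G protein alpha subunit gene, was at 501, 450 and 487 FPKM in labelled ovary and 198, 179 and 187 FPKM in control ovary, while its sex difference was kept (-8.73 against -9.19, difference adjusted p = 0.736). With labelled testis replicate 2 left out the difference was called for cldnd (1.76), s100a1 (1.87) and si:ch73-15b2.5 (1.17), and without control testis replicate 2 for tmem144b (2.92).

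si:ch211-283g2.1 was stronger (-8.87 against -4.81 log2 units, difference -4.07, SE 0.39, adjusted p = 3.59e-05), with 0.147, 0.0840 and 0.398 FPKM in labelled testis and 2.87, 2.24 and 2.66 FPKM in control testis. si:ch211-14a17.6 was weaker (-8.77 against -10.3, difference 1.49, adjusted p = 0.045), a call present in 1 of 12 leave-one-out fits, that without labelled testis replicate 2.

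Of the 10 named genes of opposite sign, 9 shifted more in ovary than in testis between labels. Among them, rd3, which acts in photoreceptors in mammals, was at 86.0, 90.3 and 90.1 FPKM in labelled ovary and 0.574, 0.227 and 0.183 FPKM in control ovary. Testes held 2.67, 3.26 and 4.60 FPKM under the label and 2.5, 1.51 and 2.90 FPKM in controls, with overlapping ranges. The sex difference went from 2.55 to -4.84 log2 units (SE 0.33, adjusted p = 2.34e-08; difference -7.39, SE 0.50, adjusted p = 2.25e-06).

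shtn1, a gene of neuronal polarity, was at 10.4, 9.55 and 8.90 FPKM in labelled ovary and 0.298, 0.0668 and 0.117 FPKM in control ovary. Its sex difference went from 5.92 to -1.05 (difference -6.97, adjusted p = 1.65e-06), with the labelled value at -0.96 under median-of-ratios scaling and without labelled testis replicate 1, and -0.99 without labelled ovary replicate 1. oit3 (6.45, 6.32 and 6.31 FPKM in labelled ovary against 0.142, 0.0601 and 0 FPKM in control ovary) changed by -7.49 (adjusted p = 0.000296). calcoco1b (12.9, 12.7 and 12.9 FPKM against 0, 0 and 0.149 FPKM) changed by -9.27 (adjusted p = 0.00218). si:ch211-124n19.2 changed by -7.02 (adjusted p = 1.86e-07), from 0.0632 ± 0.0248 FPKM in control ovary to 9.99 ± 0.351 FPKM in labelled ovary.

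In the opposite direction, ovary levels were lost under the label. lbx1a, a homeobox gene, was at 10.7, 13.3 and 12.4 FPKM in control ovary and 0 in all labelled ovaries, at least 571-fold lower, and si:zfos-1011f11.1 was at 15.7, 19 and 17.1 FPKM and 0, at least 2043-fold lower. For both, the turned sign sets a low labelled testis against 0. On log2(FPKM + 1), limma put their labelled sex differences at 0.38 and 0.058 (adjusted p = 0.0737 and 0.640). That of si:zfos-1011f11.1 was also not called by edgeR on its own 6 libraries (adjusted p = 0.0766). si:ch73-70c5.1 was at 12.7, 12.9 and 11.9 FPKM in control ovary and 0, 0 and 0.0201 FPKM in labelled ovary (difference 9.76, SE 0.89, adjusted p = 2.24e-05). and2, a fin ray protein gene in zebrafish, changed more in testis than in ovary, from 7.75, 6.60 and 6.76 FPKM in control testis to 0.0517, 0 and 0 FPKM in labelled testis (difference -12.1, adjusted p = 0.000203). With crhb, all 10 kept the difference call in all 12 leave-one-out fits. Sizes were less steady where 1 library held the only counts of a group. Over these fits the difference ran from -17.9 to -11.5 for and2, -14.6 to -8.58 for calcoco1b and 9.15 to 12.9 for si:ch73-70c5.1.

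Among the 10 weaker genes, cacna1db, a calcium channel subunit gene, was at 29.8, 27.9 and 29.5 FPKM in control ovary and 1.56, 1.77 and 1.53 FPKM in labelled ovary. Testes held 0.564, 0.701 and 0.442 FPKM under the label. The sex difference shrank from -6.22 to -1.70 log2 units (SE 0.15, adjusted p = 2.77e-07; difference 4.52, SE 0.22, adjusted p = 2.24e-07). c7a, encoding complement component C7, fell in testis from 24.1, 24.6 and 25.5 FPKM to 5.44, 5.58 and 1.69 FPKM (8.46 to 3.64 log2 units, difference -4.82, adjusted p = 0.000288). emilin2a, a matrix glycoprotein gene, rose in ovary from 0.0646, 0.124 and 0.233 FPKM to 1.49, 1.93 and 0.990 FPKM (difference -4.17, adjusted p = 0.000309). Its labelled sex difference of 1.12 fell under the 2-fold minimum without labelled testis replicate 1 (0.84) and without labelled ovary replicate 3 (0.91).

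si:dkey-211g8.4 was at 0, 0 and 0.716 FPKM in control testis and 46.0, 45.1 and 54.6 FPKM in labelled testis, with 97.3, 92.8 and 92.7 FPKM in labelled ovary (difference 8.06, SE 0.64, adjusted p = 7.83e-06). Its labelled sex difference was -1.14, and -0.95 with total count scaling. The osteocalcin gene bglap was at 0 in control testis, where control ovary was at least 405-fold higher, and at 0.413, 0.371 and 0.693 FPKM in labelled testis. The adhesion gene esamb was at 0 in control ovary, where control testis was at least 1436-fold higher, and at 0.146, 0.0428 and 0.117 FPKM in labelled ovary. These 6 calls were present in all leave-one-out fits, over which the difference of si:dkey-211g8.4 ran from 7.33 to 13.7.

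The other 4 weaker genes rest on few libraries. txlnbb, a taxilin gene, was at 38.3, 35.3 and 37.7 FPKM in control ovary and at or near 0 in all labelled gonads, and its difference call (9.07, adjusted p = 0.00977) was lost without labelled testis replicate 3. nek12, nmnat2 and unc119a were at 0 in control ovary, with control testis at least 2351, 297 and 28.9-fold higher. Labelled ovaries held 0, 0.231 and 0.181 FPKM of nek12, 0, 0.178 and 0.0756 FPKM of nmnat2 and 0.874, 0.527 and 1.07 FPKM of unc119a. Their calls (adjusted p = 0.0221, 0.0493 and 0.0382) were lost in 4, 11 and 9 leave-one-out fits: for nek12 without control ovary replicate 2 or 3 or labelled ovary replicate 2 or 3, for nmnat2 in every fit but that without labelled ovary replicate 1, and for unc119a in every fit but those without control testis replicate 3, labelled testis replicate 2 and labelled ovary replicate 2. On log2(FPKM + 1), limma called unc119a in the opposite direction (1.21, adjusted p = 0.0183).

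Among the 10 stronger genes, xpnpep2, an aminopeptidase gene, was at 0.0610, 0.0549 and 0.0653 FPKM in labelled ovary and 4.49, 3.43 and 5.23 FPKM in control ovary, with 19.6, 16.9 and 13.4 FPKM in labelled testis. Testis minus ovary was 7.82 log2 units (SE 0.22, adjusted p = 1.19e-11) against 2.26 (difference 5.56, SE 0.26, adjusted p = 2.24e-07). eef2a.2, a translation elongation factor gene, was at 0.112, 0.161 and 0.0490 FPKM in labelled ovary and 7.19, 7.60 and 7.44 FPKM in control ovary (difference 5.01, adjusted p = 7.74e-06). si:dkey-183j2.10 behaved alike, at 0.682, 0.445 and 0.262 FPKM against 13.3, 12.6 and 9.58 FPKM in ovary (difference 5.08, adjusted p = 0.000384). opn4b, a melanopsin photopigment gene, was ovary-higher under the label at 6.70, 6.61 and 6.67 FPKM against 0.158, 0.0490 and 0.235 FPKM in control ovary (difference -6.73, SE 1.03, adjusted p = 0.000941).

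asb5a, a ubiquitin ligase adaptor gene, was testis-higher by 7.64 against 3.99 log2 units (difference 3.64, adjusted p = 0.00354). CLEC18A, a C-type lectin gene, was at 8.03, 7.02 and 5.25 FPKM in labelled testis and 0.221, 0.322 and 0.527 FPKM in control testis. It was at 0 in labelled ovary, with labelled testis at least 460-fold higher, and its difference call (adjusted p = 0.0216) was lost without control ovary replicate 2 (4.32). With tnnc2, si:ch211-283g2.1 and slc6a19a.2, 8 of the 10 kept the difference call in all leave-one-out fits, the exceptions being CLEC18A and si:ch211-226m16.3.

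**Figure D5:**
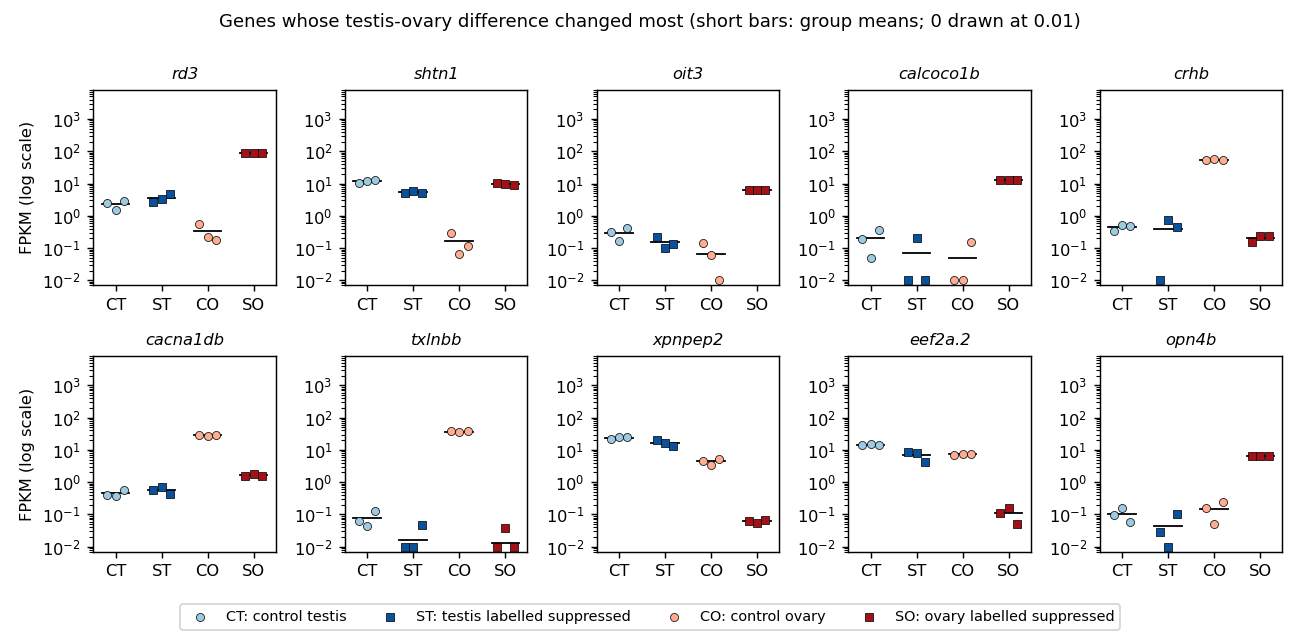
Genes from the rule for the largest changes in sex difference in each of the 12 libraries, as FPKM on a log axis with 0 drawn at 0.01, 3 libraries per group and a short bar at the group mean; CT and CO are control testis and ovary, ST and SO the labelled ones. The 10 panels are a chosen subset of the genes that the rule named. In each of them ovary shifts more than testis between labels. In rd3 ovary goes from 0.183 to 0.574 FPKM in controls to 86 to 90.3 FPKM under the label. Other genes of the rule, such as and2 and si:dkey-211g8.4, shift more in testis. Over whole classes the ovary shift is the larger for 57.8% of weaker, 54.6% of stronger and 72% of opposite-sign genes, against 48.8% of all tested genes.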

How the data were processed

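Tilapia gonad RNA was sequenced as 12 Illumina libraries per the labels' protocols. The authors deposited 1 table with an estimated count and an FPKM value per gene and library; the submitters' processing notes name HISAT and StringTie, no versions are given, and strand setting, genome build and annotation are not stated there. The deposited estimated counts were all whole numbers, so rounding changed none. Genes with at least 1 FPKM in at least 3 of 12 libraries were tested (15382 of 22283). edgeR 4.0.16 (R 4.3.3) fitted 4 group means to all 12 libraries with TMM scaling and quasi-likelihood F tests; SEs were derived from F. Adjusted p-values are Benjamini-Hochberg over all tested genes. With 3 against 3 libraries an exact permutation test of 1 gene cannot go below p = 0.1. Alternatives used DESeq2 1.42.0, limma 3.58.1 on log2(FPKM + 1) and log2(FPKM + 0.1), other scalings and filters, a replicate block and fits without each library. Scaling moved the median labelled sex difference of all genes from 0.07 (TMM) to 0.16 (median of ratios) and 0.27 log2 units (total counts), so changes are relative to it.

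Named genes were up to 6 called members per list by mean FPKM, defining markers, list members called in the difference test, the 10 largest differences per gonad (at least 20 FPKM) and the 10 largest changes per class (at least 5 FPKM), with symbols held by 1 gene; each list's examples are a subset. The comparison, lists and rules were chosen with earlier results of these data known. Symbols the table marks as 1 of many are called copies. A group at 0 is set against a floor of 3 counts summed over its libraries; such bounds cover only counting error. Libraries of a group differed by more than sampling noise and all 12 were counted separately. Gene positions are on scaffolds and are not printed.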

Additional observations from a re-analysis of the deposited data

Results flagged for a closer look

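Of 120 named genes, 82 had a testis minus ovary difference that itself differed between labelled and control gonads by the test of that difference (edgeR, adjusted p under 0.05). Many genes were named because this test called them, so the share follows from the naming rule and is no result. Of all tested genes 15.5% were called. Values are labelled minus control in log2 units, positive toward testis. For 20 genes the fitted differences had opposite signs under the 2 labels, which does not mean a called difference under each. The labelled one was not called for inhbaa, E2F1, aldh1a2, crhb and itgb2 (edgeR adjusted p from 0.267 to 0.886). For cyp11c1, bcl6b, tfa and cpa4 the control one was under the 2-fold minimum. Values were C3 -6.32, E2F1 1.15, aldh1a2 -2.22, and2 -12.1, bcl6b 3.71, calcoco1b -9.27, cbr1 3.10, cpa4 4.05, crhb 7.59, cyp11c1 1.71 and inhbaa -3.05. Others were itgb2 2.5, lbx1a 12.5, oit3 -7.49, rd3 -7.39, shtn1 -6.97, si:ch211-124n19.2 -7.02, si:ch73-70c5.1 9.76, si:zfos-1011f11.1 8.79 and tfa 4.07.

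The 33 genes that had a larger sex difference under the label include the following values. Values were ACTB -1.51, AKR1D1 1.84, CFAP69 2.36, CLEC18A 7.85, STAG3 0.66, asb5a 3.64, clu -2.46, cth1 -0.74, cyp26a1 -1.53, dmc1 1.44 and dnah1 1.95. Others were dnd1 -1.32, eef2a.2 5.01, gapdh -1.36, hsd11b2 1.64, hsd3b1 1.50, hsd3b7 -1.40, opn4b -6.73, paqr8 -0.80, postna -1.27, pttg1 -1.37 and si:ch211-226m16.3 5.78. Others were si:ch211-283g2.1 -4.07, si:dkey-183j2.10 5.08, slc6a19a.2 6.01, sox9a 2.38, star 1.87, sycp3 1.71, taf4b -0.97, tctex1d1 1.83, tnnc2 -3.84, ttc25 2.91 and xpnpep2 5.56.

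The 29 genes that had a smaller sex difference under the label include the following values. Values were ACVR1 0.69, DNAH11 -1.51, apoa1a 3.30, apoeb 1.60, bglap 7.66, c7a -4.82, cacna1db 4.52, ccna2 0.50, ccnd2a 0.67, cdk4 -2.05 and cfap57 -1.08. Others were cpa1 -1.48, crhr1 -10.2, cyp19a1a 1.28, dmrt1 -1.46, emilin2a -4.17, esamb -9.55, fn1b -2.46, hsd17b1 3.14, mgp 1.34, myh11b 1.81 and nek12 -6.64. Others were nmnat2 -5.33, si:ch211-14a17.6 1.49, si:dkey-211g8.4 8.06, tdrd9 -0.53, tjp1b -1.63, txlnbb 9.07 and unc119a -4.96.

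Where a gene is at 0 in a group, its value depends on the prior count; this applies to CLEC18A, bglap, crhr1, esamb, lbx1a, nek12, nmnat2, si:ch211-226m16.3, si:zfos-1011f11.1 and unc119a.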

How the results depend on the processing

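The counts of sex-biased, kept, weaker, stronger and opposite-sign genes stayed within 1.5 times of the reported ones under median-of-ratios and total count scaling, no filter, DESeq2, both limma fits, each contrast fitted on its own 6 libraries and the replicate block, except as follows. The opposite-sign count was 140 at a filter of 5 FPKM, 551 with no fold minimum and 178 at a log2 minimum of 2. That minimum left 5558 labelled calls (3159 testis-higher, 2399 ovary-higher), 5640 control calls (3305 and 2335) and 3988 kept genes. Over the 12 fits without 1 library, the difference test called 1705 to 3058 genes, with 588 to 1132 weaker, 589 to 1016 stronger, 291 to 331 opposite and 6994 to 7465 kept. Labelled calls were 9398 to 9616 and control calls 9468 to 9715. The control and labelled samples share replicate numbers, which the main fit did not treat as pairs. Of 18 same-numbered pairs 1 correlated above 0.1 (r from -0.29 to 0.11), and 1 of 12 libraries correlated best with its own number. With 3 libraries per group, such correlations cannot show whether equal numbers mark a pairing. With the replicate block, 9475 labelled, 9606 control and 1783 difference calls were made, with 609 weaker, 623 stronger, 287 opposite and 7445 kept genes. DESeq2 called 3259 differences and limma on log2(FPKM + 1) called 3105.

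Signs that turned belong to values near 0 or to genes with a group near 0, and the cause was not tested. The labelled sex difference of inhbaa was 0.028 with median-of-ratios scaling and 0.029 with DESeq2, 0.16 with total counts, 0.17 at 5 FPKM and 0.094 and 0.099 with limma at pseudocounts of 1 and 0.1. That of txlnbb was 0.078 with median-of-ratios scaling and DESeq2, 0.17 with total counts, 0.20 at 5 FPKM, 0.0043 and 0.031 with limma and 0.072 on its own 6 libraries, and that of aldh1a2 was 0.0062 at 5 FPKM. With limma at pseudocounts of 1 and 0.1, the difference between labels was -0.094 and -0.026 for odf3b, 0.22 and 0.061 for rnf32, and 0.045 and 0.021 for tekt1. At a pseudocount of 1 it was -0.60 for gnav1, -0.17 for tmem144b and 1.21 for unc119a, which passed the threshold in that opposite direction (adjusted p = 0.0183). Without 1 library each, labelled sex differences ran from -0.19 to 0.18 for inhbaa, -3.50 to 3.50 for txlnbb, -0.50 to 0.20 for aldh1a2, -0.053 to 0.31 for E2F1, -0.11 to 1.26 for crhb and -0.33 to 0.39 for crhr1. Differences between labels ran from -0.0098 to 1.97 for gnav1, -0.30 to 0.35 for odf3b, -4.51 to 0.28 for rnf32, -0.46 to 0.28 for tekt1, -0.25 to 0.063 for figla, -1.10 to 0.67 for foxl2, -0.44 to 0.080 for nanos3, -0.13 to 0.017 for piwil1, -0.49 to 0.19 for si:dkey-48j7.3, -0.031 to 0.18 for cfap36 and -0.42 to 0.057 for zar1. Other calls of named genes also changed with the setting. Difference calls were gained for bmp15 and ddx4 with total count scaling and limma, for ddx4 at 5 FPKM, and for amh, bmp15, cyp11a2 and gsdf with DESeq2. They were lost for cyp19a1a, hsd11b2 and tdrd9 with total count scaling, for hsd11b2 and unc119a at 5 FPKM, for ccna2, tdrd9 and si:ch211-226m16.3 with median-of-ratios scaling, for cth1 and tdrd9 with no filter, and for nmnat2 under all of these. The replicate block lost CLEC18A, aldh1a2, ccna2, cyp11c1, hsd11b2, nek12, nmnat2, tdrd9, unc119a, si:ch211-14a17.6 and si:ch211-226m16.3 (edgeR adjusted p from 0.0535 to 0.0892). DESeq2 lost the labelled sex call of si:dkey-211g8.4 (adjusted p = 0.246). At least 1 limma fit lost bglap, cyp11c1, cyp19a1a, hsd3b1, hsd11b2, nek12, nmnat2, si:ch211-14a17.6, si:ch211-226m16.3 and unc119a. The labelled sex difference fell under 2-fold or its threshold in at least 1 limma fit for ACVR1, and2, cacna1db, emilin2a, lbx1a, myh11b, shtn1, si:ch73-70c5.1, si:dkey-211g8.4 and si:zfos-1011f11.1, the last also on its own 6 libraries. Calls of genes near 0 in a gonad are limited by depth, since a few counts decide them.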
